A study of Oryzias latipes with 18 samples.

Results

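The elements described here are the accessible DNA elements around the genes of the POU family of transcription factors in medaka (Oryzias latipes) embryos. The family was taken from the supplementary list of transcription factor (TF) genes of the study, which holds 1646 TF genes, 18 of them in the family Pou. An element was a member if its midpoint lay within 50 kb of the transcription start site (TSS) of one of these genes, that is, the start of a gene on the forward strand or the end of one on the reverse strand. The rule found 421 elements of 149539 in all, none of them shared between POU genes. Of the 18 genes, 17 lie on 12 of the 24 chromosomes and 1, IGDB10836, on an unplaced scaffold.

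The study profiled whole embryos by ATAC-seq, in which a transposase inserts adapters where chromatin is open. Libraries came from stages 11, 15, 19, 25, 29, 32, 36, 38 and 40, with 2 replicates per stage and 18 libraries in all. All embryos were offspring of the strains d-rR-Tg(olvas-GFP) and Qurt, kept at the same temperature, with the chorion and yolk removed. No stage is a control of the others, and the deposited list pools all of them.

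Each element has coordinates on the assembly ASM223467v1 and carries 2 values. The first, called the score below, exceeds 7 everywhere, which is the cutoff the authors set on the −log10 q of their peaks, and it is taken as a value on that scale. The second runs from 1 to 29 and is taken as how many peaks were joined to form the element. Elements of 9 or more peaks are singled out because there were 9 stages, but 1 stage can give several peaks to an element, so 9 peaks need not mean 9 stages. The list gives no value per stage or per replicate, so no value here has an error between replicates, no difference was tested, and the depth of each library is unknown. In a whole embryo, accessibility in few cells and weak accessibility in many cells cannot be told apart.

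POU proteins bind DNA with a POU-specific domain and a homeodomain joined by a flexible linker, and many of them recognise the octamer element. Classes of the family are named by number. The class V protein of fish, Pou5f3, is related to the mammalian pluripotency factor POU5F1 and is needed in zebrafish to activate the genome of the embryo. Classes III and IV act largely in the nervous system and sense organs, and the class I protein Pou1f1 in the pituitary.

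Names came from RefSeq, in which 17 of the 18 genes overlap a gene. Of these, 10 carry a POU symbol and 7 a LOC symbol only. LOC100049520 (IGDB13298) is taken here as the pou5f3 of the study. A supplementary table of TF scores in the study names LOC101156340 (IGDB12579) Pou2f2, LOC101174234 (IGDB05814) Pou3f3 and LOC101162433 (IGDB18309) pou3f3b. It lists IGDB13298 under Pou3f1, Pou3f3 and Pou5f1, so the name pou5f3 and class V are an assignment made here. LOC101159940, LOC111947099, LOC101157964 and IGDB10836 have no single POU name in these sources either, and are left without a class. The RefSeq gene pou2f1 overlaps no gene of the TF table and was not a member.

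The number of elements per POU gene ranged widely, and its middle lay close to that of other TF genes. The 18 POU genes had a median of 22.5 elements within 50 kb (quartiles of 17.25 and 29, range 3 to 47), against a median of 25 (quartiles of 17 and 32) for the other 1628 TF genes. The mean was 23.4 ± 11.4 per POU gene (SD over genes) and 24.5 ± 11.6 per other TF gene. On the chromosomes alone the medians were 25 for 17 POU genes and 26 for 1515 other TF genes. The medians were higher in 13 PAX genes (34) and 227 Homeobox genes (29), while 63 HMG genes, the family of the SOX factors, had 24. Of the POU genes, 8 were above the median of the other TF genes. The differences between the families were not tested.

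**Figure D1:**
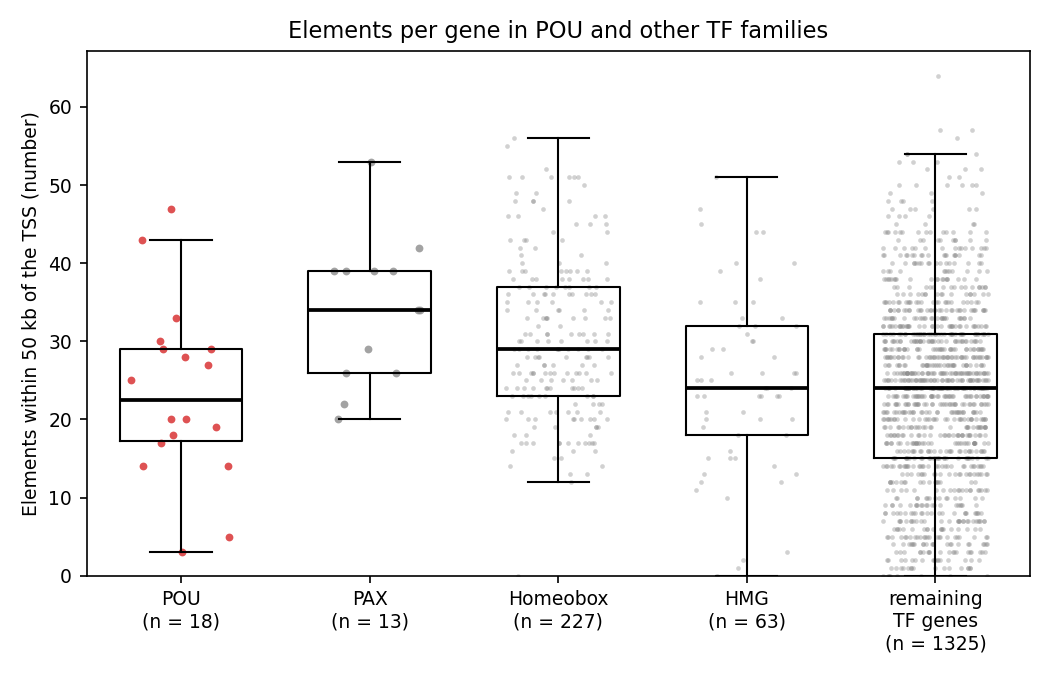
Number of elements within 50 kb of the TSS (y axis) for each gene of the POU family, of the PAX, Homeobox and HMG families and of the remaining TF genes; each point is a gene, boxes span the quartiles with the median as a line, and whiskers reach the last value within the usual box-plot limit. The POU genes spread from 3 to 47 elements, with a median of 22.5 below those of the PAX (34) and Homeobox (29) genes.

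The genes with the most elements were pou3f1 and pou2f2. pou3f1, known in mouse from the myelinating Schwann cells of nerves, had 47 elements, a number that 46 TF genes exceeded. pou2f2, the gene of the B cell factor Oct-2 in mammals, had 43, exceeded by 89 TF genes. LOC101156340 followed with 33, and these 3 genes together held 123 of the 421 elements (29.2%). At the other end were pou2f3 and pou4f3 with 14 each, pou4f2 with 5 and IGDB10836 with 3. The window of IGDB10836 is not complete, since the gene begins 34959 bp from the start of its scaffold.

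**Figure D2:**
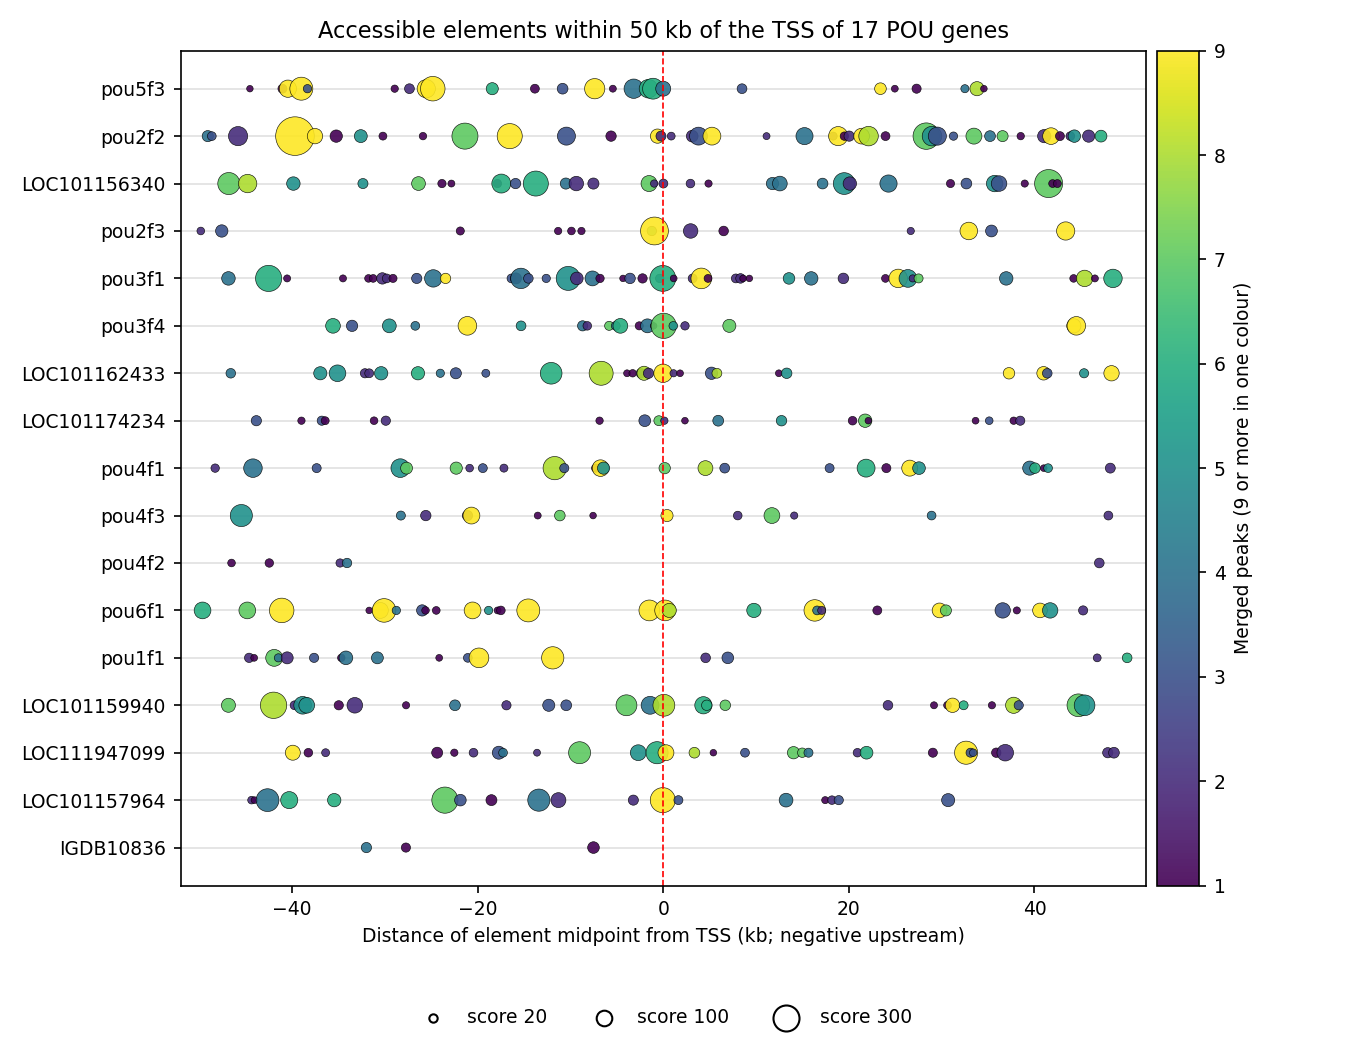
Map of the elements of 17 POU genes, one row per gene, by the distance of the midpoint from the TSS in kb (x axis, negative upstream, TSS as a dashed line); circle area grows with the peak score and colour gives the number of merged peaks. The row of pou4f2 holds 5 small circles, all more than 34.0 kb from the TSS, while pou3f1 has 47 across the whole window.

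Elements around POU genes were of ordinary width and, by median score, somewhat stronger than elements in general. Their median width was 249 bp (quartiles of 178 and 363 bp), against 255 bp over all elements. Their median score was 38.1 (quartiles of 20.5 and 91.8), against 35.1 (17.9 and 77.9) around other TF genes and 30.8 over all elements. A score of 100 or more was reached by 99 of the 421 (23.5%), against 15.8% of all elements. Around other TF genes the share was 19.1%, around HMG genes 20.5%, around PAX genes 17.9% and around Homeobox genes 17.4%. Without any 1 of the 18 genes the POU share stayed between 21.96 and 24.7%. Of the 99, pou2f2 held 16, LOC101159940 held 11, and pou3f1 and pou6f1 held 10 each. The share without several genes at once was not computed. Of the 18 genes, 15 had at least 1 such element, and pou4f2, LOC101174234 and IGDB10836 had none. Most other TF genes had one too, since the lower quartile of their strongest scores was 198, but the exact share was not counted. By the strongest element of each gene, POU genes were not higher. The median was 259, against 303 in other TF, 290 in Homeobox, 312 in HMG and 361 in PAX genes.

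Few elements were merged from at least as many peaks as there were stages, around POU genes as over all elements. Of the 421 elements, 48 were merged from 9 or more peaks (11.4%, 95% Wilson interval 8.71 to 14.8%), against 12.5% of all elements, 15.2% around other TF genes and 9.50% around PAX genes. Single peaks made up 100 of the 421 (23.8%, 19.9 to 28.0%), against 27.7% of all elements and 25.5% around other TF genes. These intervals cover counting error only. If only elements whose nearest gene end belonged to the POU gene were used, 163 remained (38.7%), and the share merged from 9 or more peaks was 6.75%. That filter was not run for other TF genes, so this share cannot be set against the values above. pou6f1 had 10 of the 48, pou2f2 had 8 and pou5f3 had 6, and 5 genes had none, among them LOC101156340, LOC101174234, pou4f2 and IGDB10836. LOC101156340 had none although it had 33 elements.

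The median score of POU elements was above that of all elements at every number of peaks other than exactly 9. Among single peaks it was 14.8, against 13.6 over all elements, and among elements of 10 or more peaks it was 157 over 10 POU elements, against 142 over all elements and 153 around other TF genes. Elements of 3 to 8 peaks were taken as 1 class after the values had been seen. It held 201 POU elements with a median score of 58.4 (quartiles of 32.7 and 116), against 47.6 in 14360 elements around other TF genes and 44.8 in 66677 of all elements. A score of 100 or more was found in 61 of the 201 (30.3%), against 17.5% around other TF genes and 15.5% of all elements merged from 3 to 8 peaks. Without any 1 gene the POU share stayed between 27.9 and 31.9%. Leaving out 1 gene at a time cannot show whether a few genes carry this share, and leaving out several was not tried. In 12 of the 18 POU genes (66.7%) the median of this class lay above that of all elements, against 52.5% of 1582 other TF genes, most of all in pou2f2 (106 over 17 elements), LOC101159940 (105 over 18) and LOC101156340 (99.8 over 19). It lay below in pou1f1, pou4f3, pou4f2, LOC101174234, LOC111947099 and IGDB10836.

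Elements of exactly 9 peaks went the other way. The 38 POU elements of this kind had a median score of 122, against 156 around other TF genes and 149 over all elements. The score was higher in elements of more peaks in both sets, with a Spearman's rho of 0.79 over the 421 POU elements and 0.80 over all elements. With the width it had a rho of 0.48, and with the distance from the TSS one of 0.0025, although the median score was 80.8 in the 22 elements within 1 kb of the TSS and between 32.7 and 38.7 in the zones farther out. These are descriptions over elements that share the same pooled libraries.

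**Figure D3:**
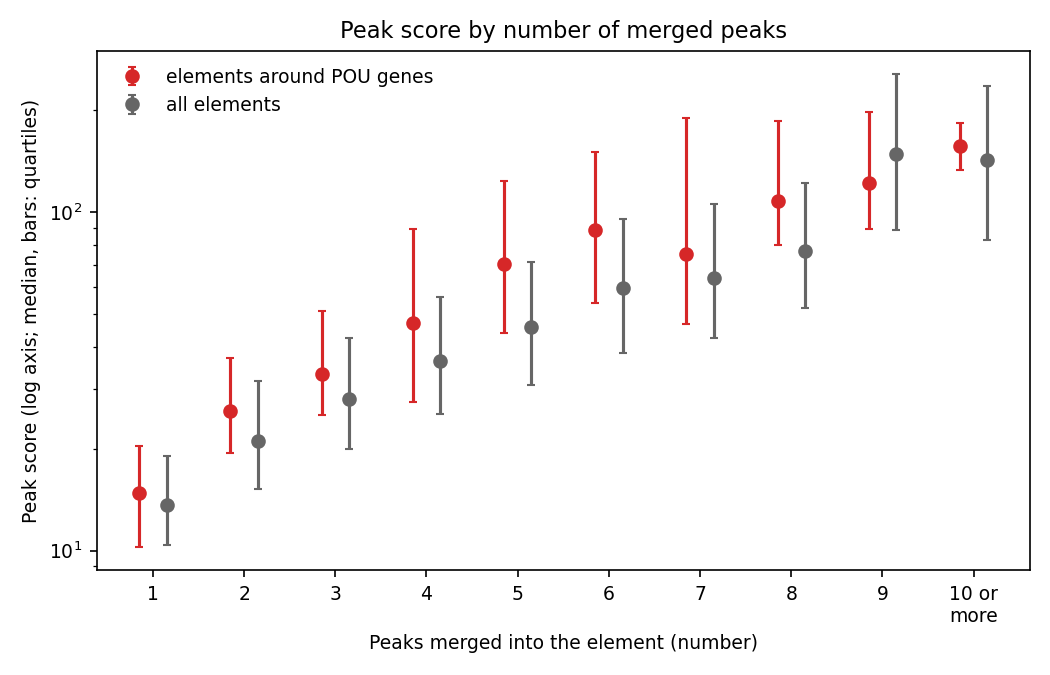
Peak score (y axis, log scale) by the number of peaks merged into an element (x axis), for elements around POU genes and for all elements; points are medians and bars span the quartiles. The POU medians lie above those of all elements from 1 to 8 peaks and at 10 or more (157 against 142), and below at 9 peaks (122 against 149).

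An element stood at the start of most POU genes, as of most TF genes. Of the 18 POU genes, 15 had an element within 1 kb of the TSS (83.3%), against 84.1% of the other TF genes. With the TSS moved to the end of the RefSeq gene on the same side, 13 had one. The strongest such element of each gene had a score from 24.8 (LOC101156340) to 345 (pou2f3), with a median of 145 over the 15 genes, against a median of 117 over 1369 other TF genes. The quartiles were nearly the same, 51.9 and 245 for POU genes and 51.0 and 244 for other TF genes. In HMG genes the median was 186. None of the 22 elements within 1 kb came from a single peak, which allows a share of up to 13.6%, and 12.7% did around other TF genes. Of the 22, 7 were merged from 9 or more peaks (31.8%), against 40.2% around other TF genes.

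At most POU genes the strongest element of the window was not the one at the start. It was within 1 kb of the TSS in 2 of the 15 genes with such an element (13.3%), pou3f4 and pou2f3. The share was 22.3% in the other TF genes with one, 8.96% in Homeobox, 16.7% in PAX and 33.3% in HMG genes. In pou2f3 that element lies 0.011 kb from trim37, the next gene upstream, at a distance of 0.95 kb from pou2f3. In 14 of the 18 POU genes (77.8%) the strongest element lay more than 10 kb from the TSS, a zone that makes up 80% of the window, against 66.4% of 1618 other TF genes. It was in the body of another gene in 8, intergenic in 6 and in the gene's own body in 3, while IGDB10836 was not placed. Those of pou2f2, pou2f3 and pou4f3, counted as intergenic, lay only 0.01, 0.011 and 0.0045 kb from another gene.

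**Figure D4:**
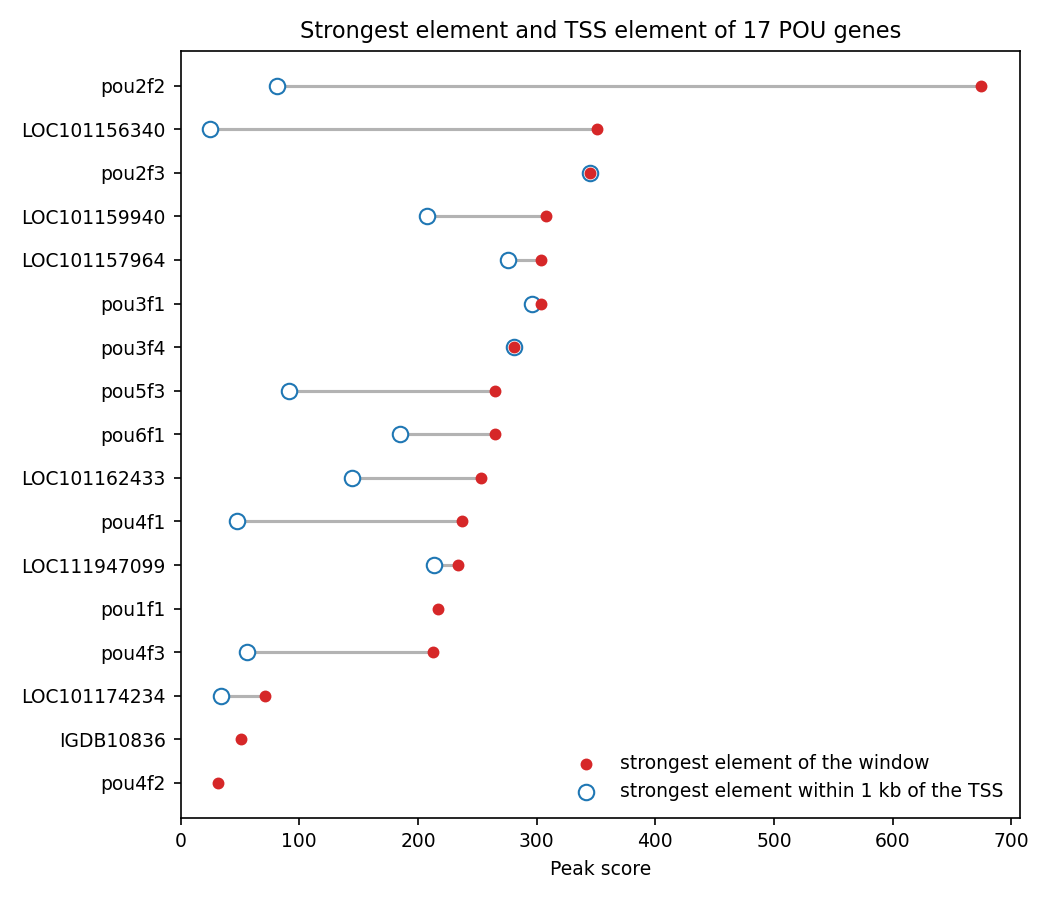
Peak score (x axis) of the strongest element within 50 kb of the TSS (filled circles) and of the strongest element within 1 kb of the TSS (open circles) for 17 POU genes. The circles coincide in pou2f3 and pou3f4, are far apart in pou2f2 (675 and 81.4) and LOC101156340 (351 and 24.8), and the open circle is missing in pou1f1, pou4f2 and IGDB10836.

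Away from the start, the density was highest between 1 and 5 kb, where there were 3.19 elements per 10 kb and POU gene, against 2.60 per other TF gene. From 5 to 10 kb there were 2.28 per POU gene, against 2.50 per other TF gene. From 10 to 25 kb the POU density was 2.15, against 2.40, and from 25 to 50 kb it was 2.18, against 2.26 in other TF genes. Averaged over all genes, the POU density was thus higher than that of other TF genes between 1 and 5 kb. It was lower within 1 kb (6.11, against 7.09) and beyond 5 kb. Many of the 46 POU elements between 1 and 5 kb lay at pou3f1, LOC101162433 and pou3f4. The density without these genes was not computed. Between 1 and 5 kb only 2 of the 46 POU elements were merged from 9 or more peaks (4.35%), against 14.6% around other TF genes. Upstream of the TSS lay 226 of the 421 elements (53.7%), against 48.1% of the element and gene pairs of other TF genes. Among the elements whose nearest gene end was that of the POU gene, 36.2% lay upstream, so the direction of this split depends on that choice. The same share was not computed for other TF genes.

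POU elements were more often intergenic than those of other TF genes, by count. Intergenic elements numbered 188 (44.7%), against 33.4% of the pairs of other TF genes on the chromosomes. A further 148 (35.2%) lay in the body of another gene, against 47.0%, and 82 (19.5%) in the body of the POU gene itself, against 19.7%. More than 5 kb from every RefSeq gene lay 98 (23.3%), against 14.4%. The median score of these 98 was 31.7, with 4 elements of 9 or more peaks (4.08%). In the 148 elements within other genes it was 37.5, with 23 elements of 9 or more peaks (15.5%). pou3f1 alone held 42 of the intergenic elements and 29 of the 98.

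**Figure D5:**
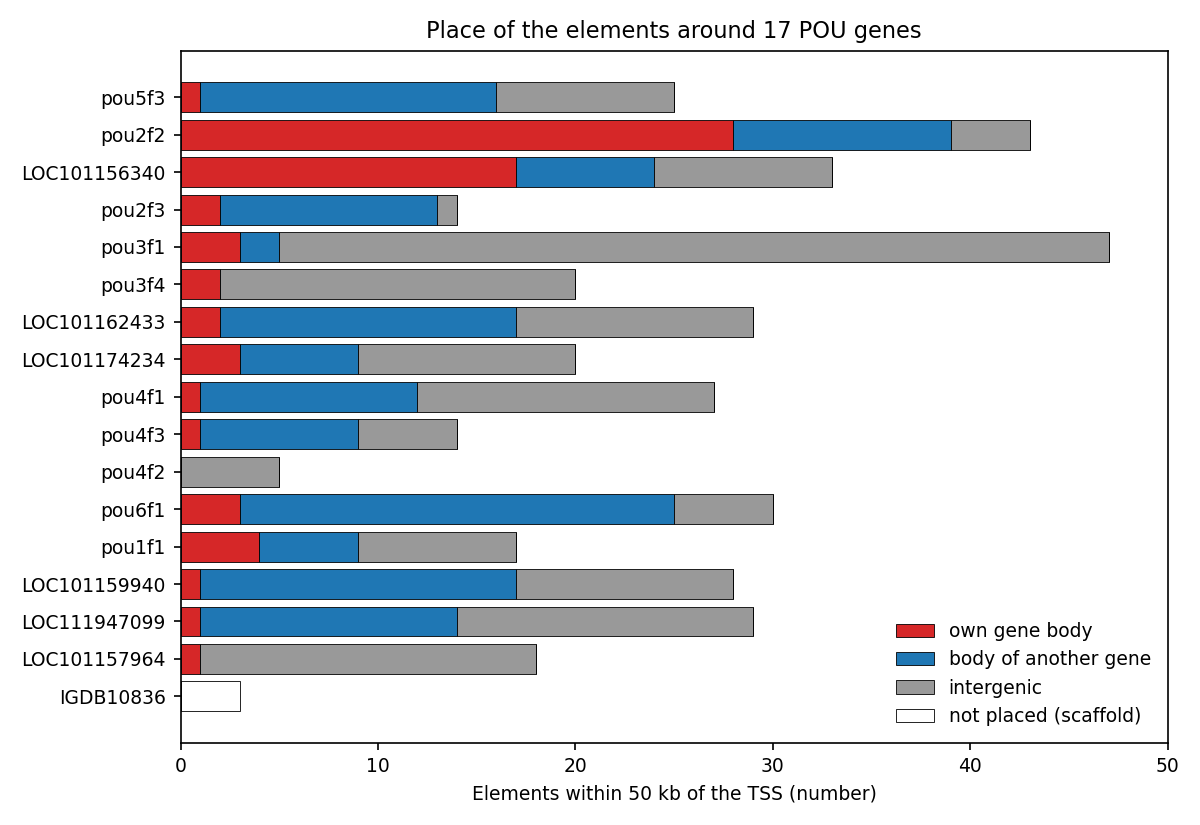
Number of elements within 50 kb of the TSS (x axis) of 17 POU genes, split by place: in the gene's own body, in the body of another RefSeq gene, intergenic, or not placed for the scaffold gene. pou2f2 (28 of 43) and LOC101156340 (17 of 33) had most of their elements in the window inside the gene, and pou3f1 (42 of 47) between genes. The own body of pou1f1 is that of its model, which also spans htr1f.

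The class V gene pou5f3 is on chromosome 12 (15942154 to 15945347, forward strand) in a window with 7 other protein-coding genes. Of its 25 elements, 17 lay upstream and 15 in the bodies of other genes. Its scores ranged from 7.57 to 265 around a median of 41.2. The strongest, 24.8 kb upstream from 15917114 to 15917548, was merged from 15 peaks and lay inside LOC101172509, the next gene upstream. A second element of 15 peaks stood 39.0 kb upstream with a score of 231, 0.1275 kb from another gene, LOC101172257. The elements at the gene had fewer peaks. Those between the TSS and 3.18 kb upstream were merged from 4 to 6 peaks. The scores were 160, 147 and 189 at 3.18, 1.58 and 1.1 kb upstream. The element over the TSS, with a score of 91.8, was the 9th strongest of the 25. Downstream of the gene body there were 7 elements, none with a score above 80.2.

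The 3 genes of class II, the octamer factors, had 90 elements with a median score of 52.5, of which 47 lay inside the genes themselves. pou2f2 and LOC101156340 are both long genes, of 60.6 and 60.0 kb. pou2f2 is on chromosome 16 (20954982 to 21015563, forward strand), and held the strongest of all 421 elements, with a score of 675, 39.7 kb upstream from 20915123 to 20915501. Only 186 of the 149539 elements are stronger. It was merged from 9 peaks and lies 0.01 kb from another gene, LOC105355961. In the part of pou2f2 within the window, the strongest element, 28.3 kb downstream of the TSS, had a score of 310 and 7 peaks. The RefSeq model of pou2f2 starts 19.96 kb downstream of the TSS used here, and an element at 20.04 kb had a score of 36.5 and 2 peaks.

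LOC101156340, on chromosome 11 (16622144 to 16682160, forward strand), had the weakest start of the genes with an element within 1 kb, with a score of 24.8 and 2 peaks. Beyond that limit, 1.52 kb upstream, an element had a score of 107 and 7 peaks. The strongest element of the window (16663376 to 16663955) was intragenic, at 41.5 kb past the TSS, and had a score of 351 and 7 peaks. Another at 13.7 kb upstream had a score of 276 and 6 peaks. pou2f3, which in mouse is needed for tuft cells and some taste cells, lies on chromosome 14 from 24869112 to 24883712. It had 14 elements, 11 of them in other genes. The element with the most peaks of all POU elements, 19, lay 32.9 kb downstream inside slc37a2, with a score of 130, and one of 15 peaks followed at 43.4 kb inside ccdc15.

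The 4 genes of class III, largely neural factors, had 116 elements, of which 83 were intergenic (71.6%) and 31 came from a single peak. Of these, pou3f1 alone held 42 of the 83 and 16 of the 31. pou3f1 is on chromosome 16 (23782758 to 23785754, reverse strand). The next protein-coding gene upstream, rragc, is 237 kb away, and utp11 lies 28.0 kb downstream. Its 47 elements had scores from 7.75 to 303 around a median of 30.4, and 16 of them came from a single peak. The element at the TSS had a score of 296 and 6 peaks. An element 42.5 kb upstream, from 23828077 to 23828449, had a score of 303 and also 6 peaks, and another 10.2 kb upstream had a score of 253 and 5. Only 3 of the 47 were merged from 9 or more peaks, at 23.4 kb upstream (score 37.4), 4.11 kb downstream (184) and 25.3 kb downstream (146).

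pou3f4, in which human mutations cause X-linked deafness, is on chromosome 10 (27187374 to 27188650, forward strand) with no other protein-coding gene in its window. Its 20 elements had scores from 7.93 to 281. The strongest stood at the TSS, from 27187116 to 27187734, with 7 peaks. The widest, of 1731 bp, was 21.1 kb upstream with a score of 148 and 11 peaks. Between 7.13 and 44.2 kb downstream there was no element, and 2 elements of 9 peaks closed this stretch with scores of 81.5 and 146. These 2 lay 0.0775 and 0.114 kb from a tRNA gene, trnal-caa.

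The genes named Pou3f3 and pou3f3b had unlike windows. LOC101162433 (pou3f3b in the study), on chromosome 2 (12565050 to 12568299, reverse strand), had 29 elements with a median score of 37.0, an element of 9 peaks with a score of 145 at the TSS, and a stronger one of 253 with 8 peaks 6.68 kb upstream. LOC101174234 (Pou3f3), on chromosome 21 (10232014 to 10233258, forward strand), had 20 elements with a median score of 19.7. None of these reached a score of 100, none was merged from 9 or more peaks, and 9 came from a single peak. Its highest score, 70.8, belonged to an element 21.8 kb downstream inside c21h2orf49, and the strongest within 1 kb of the TSS had 33.8.

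Class IV holds factors of sensory neurons and sense organs. pou4f1, which acts in sensory neurons, had 27 elements, pou4f3, a factor of inner ear hair cells, had 14, and pou4f2, a factor of retinal ganglion cells in mouse, had 5. pou4f1 is on chromosome 3 (14872235 to 14875475, forward strand). Its TSS element had a score of 47.7 and 7 peaks and was only the 13th strongest of the 27. The strongest, 11.7 kb upstream from 14860349 to 14860741, had a score of 237 and 8 peaks and lay in LOC105356948. In pou4f3, on chromosome 14 from 7315063 to 7318328, the TSS element had a score of 56.0 and 9 peaks. The strongest stood 45.4 kb upstream with a score of 213 and 5 peaks, 0.0045 kb from plac8l1.

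pou4f2 had no element within 34.0 kb of its TSS. Its model is on chromosome 1 (18620080 to 18624873, forward strand), with the nearest protein-coding genes, lsm6 and ednra, 125 and 86.8 kb away. Its 5 elements lay 46.5, 42.4, 34.8 and 34.1 kb upstream and 47.0 kb downstream. Their scores were 15.0, 21.3, 19.8, 29.2 and 31.4 and they were merged from 1, 1, 2, 4 and 2 peaks. All are below the median score of all POU elements. The midpoints on either side of the gene are 81.0 kb apart, and 215 of the 144256 gaps between neighbouring elements on the chromosomes are longer, while the median gap is 2.69 kb. Read coverage was not analysed here, so whether reads could be mapped there was not tested.

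The class VI gene pou6f1, expressed in the nervous system, is on chromosome 7 (22365769 to 22379360, forward strand) in the window with the most other protein-coding genes, 8. Its 30 elements had the highest median score of any POU gene, 81.2, and 22 lay in other genes. Of its 30 elements 10 were merged from 9 or more peaks, among them the element at its TSS with 12 peaks and a score of 185. The strongest, with a score of 265 and 9 peaks, lay 41.1 kb upstream inside racgap1.

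The class I gene pou1f1, the pituitary factor behind growth hormone, prolactin and thyrotropin cells, is in the study a model of 75.5 kb on chromosome 21 (17860837 to 17936329, reverse strand), which also spans htr1f. The RefSeq pou1f1 ends 5.78 kb from the TSS of this model. Of 17 elements 13 lay upstream. The element closest to the TSS, 4.57 kb downstream, had a score of 31.1 and 2 peaks. The strongest, 11.9 kb upstream, had a score of 216 and 9 peaks and lay in chmp2b, as did the one with the most peaks, 11, at 19.8 kb upstream (score 166). In the part of the model within 50 kb of the TSS there were 4 elements, with scores up to 50.9, and for 39.8 kb between 2 of them there was none. The 2 beyond this stretch, at 46.8 and 49.98 kb, had htr1f as the closest gene, 3.23 and 0.01 kb away.

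The genes without a class also differed among themselves. LOC101159940, on chromosome 16 from 4811792 to 4815371, had 28 elements with a median score of 48.7 and 11 of them at a score of 100 or more. Its TSS element had a score of 208 and 8 peaks, and the strongest, with 308 and 8 peaks, lay 42.0 kb upstream in LOC101161187, which held 13 of the 14 upstream elements. LOC101157964, on chromosome 14 from 28504511 to 28507848, had 18 elements, 17 of them intergenic, and no other protein-coding gene in its window. Its TSS element had a score of 276 and 9 peaks, and 3 others upstream had scores of 304 (23.5 kb, 7 peaks), 227 (42.6 kb, 4 peaks) and 215 (13.4 kb, 4 peaks). LOC111947099, on chromosome 24 from 15109117 to 15111934, had 29 elements. A pair stood at its start, with scores of 213 (6 peaks) and 104 (11 peaks), and the strongest lay 32.6 kb downstream in pgm3 with a score of 234 and 9 peaks. IGDB10836 had 3 elements, with scores of 36.7, 27.1 and 50.9 and with 4, 1 and 1 peaks, all upstream.

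The listed genes that work with POU factors had a higher median number of elements than the POU genes, though some of them had fewer. The list holds SOX and other pluripotency factors, pituitary and sensory factors and a few target genes, and 31 of its 38 symbols were found. These had a median of 28 elements within 50 kb (quartiles of 24 and 34.5), against 22.5 for the POU genes and 25 for the other TF genes, and 19 of the 31 were above the last of these. All 31 lie on chromosomes, where the medians were 25 for POU genes and 26 for other TF genes. Homeobox genes had a median of 29 and PAX genes one of 34, so a higher median is not particular to the listed genes. pax6, an eye and brain factor, had 53, otx2, a head factor, had 52, and prdm14 had 49. sox2, the partner of POU5F1 in mammalian stem cells, had 44 (at the first of 2 RefSeq genes of that symbol), nanog had 20 and pou2af1, the coactivator of octamer factors in B cells, had 24. prl, which encodes the pituitary hormone prolactin, had the fewest with 15.5, the mean of the counts around both gene ends. The same mean was used for the other listed genes without a TSS in the TF table, pou2af1 among them.

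The limit of 50 kb cut through a region with elements on both sides. In narrow strips of equal width along it, 10 elements lay inside and 21 outside. Just inside were elements of pou1f1 (49.98 kb, score 31.5), pou2f3 (49.82 kb, score 15.2) and pou6f1 (49.63 kb, score 117). Just outside were elements of pou2f2 (50.27 kb, score 22.8) and pou4f1 (50.32 kb, score 18.0).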

How the data were processed

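Per the labels, trimming used Trimmomatic 0.36, mapping Bowtie2 2.3.4.1 and peak calling MACS2 2.1.2. In the methods of the study, replicates were merged before peaks were called on the medaka reference genome, a cutoff of 7 on −log q was applied, and the peaks of all stages were then joined. The score per element was used as deposited, and how the authors combined the scores of joined peaks is not given in the sources used here. More deeply sequenced stages can give higher scores and more peaks.

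Elements were placed by midpoint against the TSS in the supplementary TF list and against RefSeq genes of ASM223467v1, each model being matched to the gene with the highest overlap relative to both. 1 model, IGDB05911, was set to pou1f1 by its symbol instead of htr1f. The software was pandas 2.3.3 and NumPy 2.4.6 under Python 3.11.15, with SciPy 1.17.1 for intervals and Matplotlib 3.10.9 for plots. The placement was tested on simulated data. No test was made, since the list analysed here pools the libraries. All POU genes but 1, which is counted in the totals but not reported here, are named, with neighbours that hold their strongest element or lie closest, and of the partner list the 3 with the most and the 1 with the fewest elements, besides sox2, nanog and pou2af1, which were chosen after their values were seen. The members and lists were chosen with earlier results of these data known.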

Additional observations from a re-analysis of the deposited data

How the results depend on the processing

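The number of POU elements and the median per gene follow the window by construction: 225 and 12.5 at 25 kb, where other TF genes had a median of 13, and 845 and 48 at 100 kb, where they had 47. With only elements of at least the median score of all elements there were 238, 13 per gene, of which 20.2% were merged from 9 or more peaks and 2.52% from a single peak. With only elements whose nearest gene end was that of the POU gene there were 163, 5.5 per gene, of which 6.75% were merged from 9 or more peaks and 36.2% lay upstream. Both filters were run for POU genes only. Merging elements closer than 500 bp, which sums their peaks, gave 18.2% of 9 or more peaks, and limits of 8 and 10 peaks gave 15.0 and 2.38%. The other 170 of 185 comparisons, over 7 results, stayed close to the reported value, that is, within 1.5 times or within the 95% Wilson interval. Most of the 185 leave out 1 gene, which by construction can change the counts only little. The number of genes with an element within 1 kb cannot change with the window. The 170 are therefore not a measure of stability. Leaving out each gene in turn gave 20 to 25 elements per gene, a median score of 36.5 to 39.7 and 9.72 to 12.4% of 9 or more peaks. The TSS at the RefSeq gene end was an alternative chosen after seeing the data. The octamer motif in promoters was not run. No paired analysis was possible because the 1 table analysed here pools the replicates of all stages, and values per library were not analysed here. Without depth or replicates, weak elements and small differences in shares cannot be judged.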

Other observations

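Just outside the window, pou4f2 had more elements than within it. Between 50 and 100 kb from its TSS there were 30, against 5 within 50 kb, 18 of them upstream and 12 downstream. The strongest, 57.2 kb upstream on chromosome 1 from 18562672 to 18562999, had a score of 407 and 9 peaks, and another 59.8 kb upstream had a score of 240 and 8 peaks. Of the 30, 5 had a score of 100 or more and 3 were merged from 9 or more peaks. Within 100 kb pou4f2 had 35 elements, still below the medians of 48 over POU genes and 47 over other TF genes. For comparison, pou4f1 had 49 elements within 100 kb, of which 27 lay within 50 kb, and pou4f3 had 22, of which 14 lay within 50 kb. pou2f2 had the most within 100 kb, 85, followed by pou3f1 with 76 and pou6f1 with 70.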
